A study of Mus musculus with 6 samples.

Results

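An intron of Sfmbt2 on mouse chromosome 2 holds a dense run of miRNA hairpins named miR-297, miR-466, miR-467 and miR-669. The mature miRNAs made from that intron were measured in nephron progenitor cells, the embryonic kidney cells that give rise to nephrons. Members were taken by position alone, as the table's rows on the plus strand of chromosome 2 that start within the Sfmbt2 gene. They were 72 of the 1104 rows, and 45 of the 1034 distinct mature miRNA names. The libraries were small RNA sequencing of cells from mice of the CD1 strain at stage E14.5 of embryonic development or at P0, the day of birth, with 3 libraries at each stage and no genotype or treatment in the labels. Each library came from the kidneys of 1 litter, up to 24 kidneys pooled, from which cells were released by a digestion of 15 min and caught on magnetic beads with an antibody to the surface integrin Itga8. The question of the comparison, per the series title, was how miRNA expression in these progenitors changes during kidney development.

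A miRNA hairpin is cut from its host transcript and then diced into a 5p and a 3p arm, either of which can be loaded into Argonaute, where it pairs with target mRNAs mainly through its seed. Sfmbt2 encodes a Polycomb group protein and is known as an imprinted gene, expressed from the paternal copy in extraembryonic tissue. The miRNA cluster in its intron is known from rodents, is best known for its abundance in the placenta, and consists of tandemly repeated hairpins that closely resemble one another. Names that differ by a letter therefore often share all or nearly all of their mature sequence, and reads can fit several of them.

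In the coordinates of build mm10, named in the submitters' processing notes, the members ran from position 10467285 to position 10518240, a span of 51.0 kb. By the GENCODE M21 annotation of the same assembly, Sfmbt2 extends from 10370510 to 10595253 on the plus strand, and all 72 rows lay in intron 11 of the 22 introns of its principal transcript (10461473 to 10523944, 62.5 kb). No row overlapped a Sfmbt2 exon. Each of the 72 rows fell inside an annotated miRNA gene of the same strand, and the rows touched 49 of the 119 miRNA genes annotated within Sfmbt2.

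The host gene's annotated start regions are shown because a single intron of that transcript carries every member. Both are RefSeq promoter windows of build GRCm38.p6 on the plus strand, 300 bases each, printed 5′ to 3′ with CG dinucleotides (searched as CG, which reads the same on both strands) in capitals.
Sfmbt2 start region at chr2:10370201-10370500: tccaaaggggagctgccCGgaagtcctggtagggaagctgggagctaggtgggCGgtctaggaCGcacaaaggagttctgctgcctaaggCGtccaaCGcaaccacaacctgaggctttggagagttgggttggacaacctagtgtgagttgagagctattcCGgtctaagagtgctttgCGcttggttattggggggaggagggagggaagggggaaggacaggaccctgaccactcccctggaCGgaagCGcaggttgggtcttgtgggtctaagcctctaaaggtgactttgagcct
Sfmbt2 start region at chr2:10372186-10372485: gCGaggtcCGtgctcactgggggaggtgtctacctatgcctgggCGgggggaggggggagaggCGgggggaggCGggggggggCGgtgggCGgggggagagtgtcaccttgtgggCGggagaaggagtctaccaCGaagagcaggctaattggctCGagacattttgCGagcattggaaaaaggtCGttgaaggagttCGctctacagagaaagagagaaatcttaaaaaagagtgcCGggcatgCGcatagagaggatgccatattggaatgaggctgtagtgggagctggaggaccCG
The first window held 9 CG dinucleotides and the second 16, against a median of 7 over 32851 promoter windows of that length. At least 9 were present in 45.8% of those windows, and at least 16 in 33.0%.

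Library depth bears on the rarer members. The reads recovered from the deposited values numbered 2649506 to 34934526 per library, and the 2 shallowest libraries were E14.5 replicates 1 and 3. In units of TPM (reads per base of the miRNA, scaled to a library sum of 1000000), 3 reads of a row whose end and start differ by 21 bases equalled 1.14, 0.127 and 0.587 TPM at E14.5 and 0.0863, 0.135 and 0.140 TPM at P0. Here and below, 3 values of a stage are those of replicates 1, 2 and 3 in that order. P0 replicate 1 lay apart from the other P0 libraries over all miRNAs: the median tested miRNA had 47.9% of its E14.5 mean in it, against 26.9% and 27.8% in P0 replicates 2 and 3. The results that this library moved most are also given without it.

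The cluster as a whole was a minor part of the miRNA pool and was lower at P0. Its 45 names, each by its row with the highest total, summed to 2763, 2929 and 3756 TPM at E14.5. At P0 the sums were 1502, 528 and 518 TPM. Every P0 library was below every E14.5 library, with P0 replicate 1 nearer to the E14.5 values than to the other P0 values on the log scale. The E14.5 libraries averaged 3149 ± 532 TPM and the P0 libraries 849 ± 565 TPM (SD, n = 3), a difference in mean log2 summed level of −2.07. Without P0 replicate 1 the P0 mean was 523 TPM and the difference −2.57. After median-of-ratios or upper-quartile scaling the difference was −0.78 or −0.65, and the median log2 change of all tested names in TPM was −1.20. Of the recovered reads of all rows, the members' highest rows took 0.279% (95% Wilson interval 0.273 to 0.285), 0.294% (0.292 to 0.296) and 0.378% (0.373 to 0.383) in the libraries of E14.5. They took 0.151% (0.1498 to 0.1524), 0.0532% (0.0522 to 0.0541) and 0.0521% (0.0512 to 0.0531) in the P0 libraries. Intervals cover counting error only. These sums and shares leave out the names' further rows. Over all 72 rows the sums were 4004, 4092 and 5124 TPM at E14.5 and 2177, 701 and 663 TPM at P0. How reads that fit several members were counted is not given in the sources used here, so the sums may count some reads more than once. The pools were bulk samples, so fewer cells of a type and less RNA per cell cannot be told apart.

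Marker miRNAs of other cell types moved in the same direction in TPM, as did most names. Of all 670 names tested, 542 had a negative log2 change in TPM. The marker sums were not compared after scaling. All 6 listed stromal and smooth muscle miRNAs were in the table and summed to 84246 to 100970 TPM at E14.5 and 33381 to 45859 at P0. The 2 endothelial miRNAs summed to 26608 to 44921 and 5634 to 8158 TPM, the 5 epithelial ones to 4122 to 23183 and 500.2 to 1542, the 4 erythroid ones to 242 to 417 and 127 to 189, and the 4 leukocyte ones to 632 to 1202 and 454 to 629. No listed marker was at 0 in every library. Their part in the cluster's lower level was not tested. The 4 listed miRNAs of the Hox clusters, taken as markers of position along the body, were all present (72606 to 111721 TPM at E14.5 and 79891 to 235302 at P0). Of the miR-290 to miR-295 cluster, known from pluripotent cells and trophoblast, 3 names were in the table, with a highest value of 2.55 TPM in any library.

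Levels along the intron were very uneven. At a mean of at least 10 TPM over the 6 libraries there were 17 members, and they held 98.4% of the cluster's summed TPM. A further 11 members had a mean of at least 1 TPM and 17 lay under it. The 17 abundant members were 10 of the 5p arm and 7 of the 3p arm. They did not lie together but were interleaved with rows of low value over the whole span, some of them the rarer arm or another copy of an abundant member. The most abundant at E14.5, miR-669a-3p with a mean of 370 ± 38.3 TPM (SD, n = 3), ranked 140 among all names in E14.5 mean TPM.

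**Figure D1:**
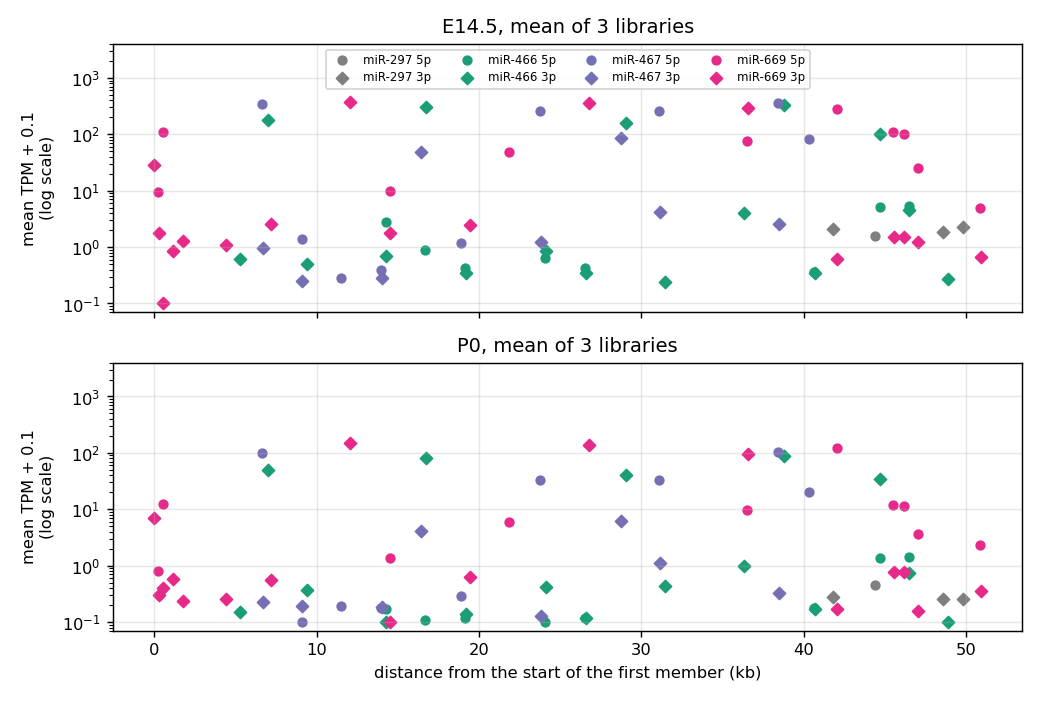
Mean TPM + 0.1 (log axis) of each of the 72 rows against its distance from the start of the first member in kb, at E14.5 (top) and P0 (bottom), 3 libraries each. Colours give the name family, circles the 5p arm and diamonds the 3p arm. Rows above 10 TPM are scattered over the whole span of 51.0 kb at both stages and sit lower at P0.

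Copies of one name differed widely. The table had several rows for 11 of the 45 names, 27 rows beyond the first, and none of these names had a row elsewhere in the genome. miR-669a-3p had 5 rows, of which those at Mir669a-4, Mir669a-9 and Mir669a-12 had E14.5 means of 370, 361 and 296 TPM, whereas those at Mir669a-5 and Mir669a-7 had 1.65 and 2.34 TPM. miR-467a-5p also had 5 rows, with 259 TPM at E14.5 at both Mir467a-6 and Mir467a-9 and at most 1.28 TPM at each of the other three. Its 3p arm was read from other copies, with 85.0 TPM at Mir467a-8 and 48.8 at Mir467a-3, against 4.07 at Mir467a-9 and 1.12 at Mir467a-6. miR-466b-3p had 7 rows, with 179.8 TPM at Mir466b-1 and 158 at Mir466b-7 and at most 3.91 TPM at the rest. The table's rows therefore do not treat copies alike.

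Some rows held practically the same number of reads. Recovered reads differed by at most 10% in every library for 6 pairs of rows with at least 60 reads each over the 6 libraries, and for 10 pairs with no such minimum. The rows of miR-467a-5p at Mir467a-6 and Mir467a-9 differed by at most 0.638%, and both rows of miR-669m-3p by 0%. The pairs also crossed names: miR-669b-5p (3621 reads over the 6 libraries) and miR-669m-5p (3699 reads) differed by at most 3.75% in any library. Names of the cluster may thus not be independent measurements. For each name the row with the highest total is used from here on, as in the sums and shares above.

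**Figure D2:**
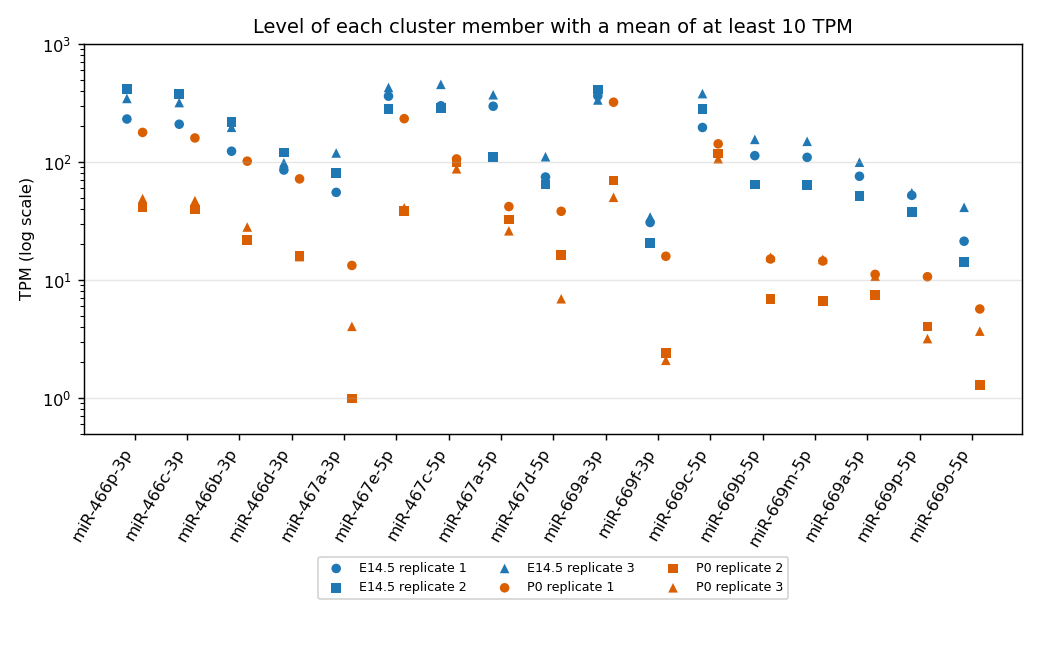
TPM in each library (log axis) of the 17 members with a mean of at least 10 TPM. Blue points are E14.5 and orange points P0, with circles, squares and triangles for replicates 1, 2 and 3. For each of these members every P0 point lies below every E14.5 point, as for 46.4% of all names with a mean of at least 1 TPM. Of the 17, 5 reached a mean of 10 TPM at E14.5 and not at P0.

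The miR-466 family contributed through its 3p arm. miR-466p-3p (10506059 to 10506080, Mir466p) had 231, 413 and 346 TPM at E14.5 and 178, 41.1 and 49.0 at P0. miR-466c-3p (10484020 to 10484041, Mir466c-2) had 209, 378 and 319 TPM at E14.5 and 159.8, 39.6 and 47.1 at P0. These profiles ran in parallel, with P0 replicate 1 not far below the lowest E14.5 library and P0 replicates 2 and 3 well below it. Their read numbers were close too, with 611 and 552 in E14.5 replicate 1, 6193 and 5557 in P0 replicate 1 and 1053 and 1011 in P0 replicate 3. The 2 names may thus not be independent measurements. miR-466b-3p (10474269 to 10474290, Mir466b-1) had 123, 219 and 197 TPM at E14.5 and 102, 21.7 and 28.1 at P0. miR-466d-3p (10512017 to 10512037, Mir466d) had 85.5, 120.1 and 98.5 TPM at E14.5 and 71.9, 16.0 and 15.8 at P0. In all of these every P0 library was below every E14.5 library, as for 46.4% of all tested names. The 5 tested 3p members were all called lower at P0 in the fit described below, whereas of 5 members of its 5p arm 3 were tested and 1 was called, where 32.8% of all tested names were called lower. Of these, miR-466n-3p and miR-466c-5p reached 1 TPM as a mean at E14.5 and not at P0, and after median-of-ratios scaling 0 of the family's calls were left. The 5p names summed to 9.36 to 18.9 TPM at E14.5, against 654 to 1134 TPM for the 3p names.

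The miR-467 family was read mainly from its 5p arm. miR-467e-5p (10505731 to 10505752, Mir467e) had 361, 282 and 428 TPM at E14.5 and 233, 38.4 and 40.9 at P0. miR-467c-5p (10473941 to 10473962, Mir467c) had 299, 286 and 455 TPM at E14.5 and 106, 99.998 and 87.6 at P0. The first therefore had a high P0 replicate 1, whereas the second had nearly equal values in all P0 libraries. miR-467a-5p (10491062 to 10491083, Mir467a-6) had 296.8, 110.4 and 371 TPM at E14.5 and 41.9, 32.5 and 26.1 at P0. miR-467d-5p (10507640 to 10507661, Mir467d) had 74.6, 64.2 and 111 TPM at E14.5 and 38.2, 16.3 and 6.94 at P0. miR-467a-3p (10496029 to 10496050, Mir467a-8) had 55.3, 80.4 and 119 TPM at E14.5 and 13.3, 0.990 and 4.05 at P0. It was the 3p member of this family with a mean above 10 TPM, and its P0 replicate 2 value rests on 22 reads.

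The miR-669 family was read from both arms. miR-669a-3p (10479366 to 10479388, Mir669a-4) had 363, 411 and 335 TPM at E14.5 and 321, 70.0 and 50.2 at P0, so that P0 replicate 1 was almost at the E14.5 level. miR-669c-5p (10509319 to 10509340, Mir669c) had 196, 280.1 and 380 TPM at E14.5 and 143, 118 and 107 at P0, with P0 values close to one another, as for miR-467c-5p. miR-669b-5p (10467814 to 10467835, Mir669b) had 113, 64.3 and 155 TPM at E14.5 and 15.1, 6.89 and 15.6 at P0. All P0 libraries of this last member were low, replicate 1 included. miR-669m-5p (10512814 to 10512836, Mir669m-1), whose read numbers were close to these, had 109, 63.8 and 149.7 TPM at E14.5 and 14.49, 6.66 and 15.0 at P0. miR-669a-5p (10503806 to 10503829, Mir669a-12) had 75.7, 51.4 and 99.6 TPM at E14.5 and 11.2, 7.48 and 10.8 at P0. miR-669p-5p (10489130 to 10489153, Mir669p-1) had 52.2, 37.7 and 54.9 TPM at E14.5 and 10.7, 4.03 and 3.19 at P0. The rarer 2 were miR-669f-3p and miR-669o-5p. miR-669f-3p (10467285 to 10467307, Mir669f) had 30.7, 20.5 and 34.2 TPM at E14.5 and 15.9, 2.41 and 2.09 at P0. miR-669o-5p (10514318 to 10514340, Mir669o) had 21.3, 14.2 and 41.3 TPM at E14.5 and 5.68, 1.29 and 3.69 at P0.

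Over all members, 26 of the 45 had every P0 library below every E14.5 library, against 32.9% of all names. Among tested names it was 23 of 28, against 46.4%, and among the 17 abundant members all 17. Nothing is read from the counts of 28 and 17, because 8 of the 28 reached 1 TPM, and 5 of the 17 reached 10 TPM, as a mean at E14.5 and not at P0.

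The miR-297 family was hardly detected. Its 3 names summed to 11.0, 2.72 and 3.13 TPM at E14.5 and to 2.04, 0 and 0 TPM at P0. miR-297a-3p and miR-297c-3p were tested and did not pass the threshold (limma adjusted p = 0.0957 and 0.261). Across the cluster, 21 members had no read in both P0 replicates 2 and 3, whereas 1 member had none in P0 replicate 1. Among the 17 members under 1 TPM, 16 had a higher mean at E14.5, and none had more than 44 reads in a library. The exception was miR-669b-3p, named after its values were seen, which had 0 reads in the E14.5 libraries and 1, 1 and 19 at P0. All P0 libraries were above all E14.5 libraries in this member and in no other, against 2.9% of all names.

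The change between stages was fitted over the whole table with limma on log2(TPM + 1), for names averaging at least 1 TPM, and p-values were adjusted by Benjamini-Hochberg over all 670 names tested. Of the 45 members, 28 were tested. Called below an adjusted p of 0.05 were 18 members, all lower at P0, while over all names tested 32.8% were called lower and 1.34% higher. The 18 were 11 of 15 tested 5p members and 7 of 13 tested 3p members, and by family 6 of 8 of miR-466, 5 of 6 of miR-467, 7 of 12 of miR-669 and 0 of the 2 tested miR-297 names. All 28 had a negative log2 change, as had 542 of all 670 names. The median of the 28 was −1.998 against −1.20 over all names. The filter favours such members: 8 of the 28 reached 1 TPM at E14.5 and not at P0, so that they had to differ. Among names with a mean of at least 10 TPM, 15 of 17 members were called lower, and 38.2% of the 432 names were called lower and 1.85% higher. That filter has the same limit, since 5 of the 17 averaged at least 10 TPM at E14.5 and less at P0, and all 5 were among the 15. The count depended on each library, as did that over all names. Without E14.5 replicate 1, 2 or 3, 7, 10 and 5 members were called lower, against 16.6%, 23.1% and 10.7% of all names. Without P0 replicate 2 or 3 there were 6 and 7, against 16.6% and 19.6%. Without P0 replicate 1 there were 24 of 27 tested, against 53% of all names, and the members' median was −2.73 against −1.40 over all names. Replicates were litter pools, so the p-values measure the spread between these pools.

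The largest falls were those of miR-467a-3p and of 5p members of miR-669. miR-467a-3p had a log2 change of −3.97 (SE 0.73, limma adjusted p = 0.00436), with stage means of 85.0 ± 32.2 and 6.11 ± 6.40 TPM (SD, n = 3). miR-669m-5p had −3.05 (SE 0.61, limma adjusted p = 0.00503), with stage means of 108 ± 43.0 and 12.04 ± 4.67 TPM (SD, n = 3). miR-669b-5p had −3.04 (limma adjusted p = 0.0051), miR-669p-5p −2.96 (0.00587) and miR-669a-5p −2.79 (0.00576). Each of these 5 passed the threshold in all 6 fits that left out 1 library, and without P0 replicate 1 miR-467a-3p had −4.69. miR-467a-5p had −2.77 (limma adjusted p = 0.00667) and miR-669o-5p −2.55 (0.0113), and they passed in 5 and 4 of those fits.

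The falls of the other abundant members were smaller, and fewer of the fits without a library called them. miR-466p-3p, miR-466c-3p, miR-466b-3p and miR-466d-3p had log2 changes of −2.16, −2.11, −2.11 and −1.88 (limma adjusted p of 0.0235, 0.0240, 0.0286 and 0.0453). miR-467e-5p had −2.28 (limma adjusted p = 0.0265), miR-467d-5p −2.23 (0.0235) and miR-669f-3p −2.36 (0.0242). Each of these 7 members passed in 1 of the 6 fits that left out a library, the fit without P0 replicate 1. Their log2 changes in that fit were, in the same order, −2.81, −2.73, −2.77, −2.58, −3.12, −2.81 and −3.15. miR-467c-5p had −1.79 (limma adjusted p = 0.0216) and passed in 2. miR-669a-3p, with a log2 change of −1.81 (limma adjusted p = 0.0563), and miR-669c-5p, with −1.17 (limma adjusted p = 0.0978), did not pass. Without P0 replicate 1 each passed, with −2.62 and −1.29.

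The size of the falls depended on the scaling. Median-of-ratios scaling, which divides each library by its typical ratio to the other libraries, moved the median of all names by 1.02, from −1.20 to −0.17. The median of the 28 tested members then stood at −0.89, so the gap between members and all names was −0.80 in TPM and −0.72 after scaling. Past the threshold stayed 1 member, miR-467a-3p, with a log2 change of −2.87 (SE 0.69, limma adjusted p = 0.0332), while 5.22% of all names were called lower and 5.67% higher. The 17 other calls were lost. Closest to the threshold were miR-669m-5p (−1.82, limma adjusted p = 0.0557), miR-669b-5p (−1.81, 0.0573), miR-669p-5p (−1.79, 0.0573) and miR-669a-5p (−1.57, 0.0686). At an unadjusted p under 0.05, 10 of the 28 members were lower after scaling, against 18.8% of all names. limma-voom with the same size factors called 0 members, and 7 of the 28 were lower at an unadjusted p under 0.05, against 16.4% of all names. After scaling 16 of the 17 abundant members kept a negative sign, where 368 of all 670 tested names were negative. miR-669c-5p turned to 0.11 (limma adjusted p = 0.889). After scaling the P0 libraries were all below the E14.5 libraries for 9 of the 17 abundant members and 10 of the 28 tested ones, against 19.6% of all tested names. Nothing is read from these counts either, because 5 of the 17 and 8 of the 28 passed their filter through E14.5 alone. Without P0 replicate 1, in a setting chosen after seeing the data, scaling left 18 of 27 tested members called lower, 15 of them among the 17 abundant ones, where 25.5% of all names were called lower. Scaling without E14.5 replicate 1, 2 or 3 or P0 replicate 2 or 3 left 0 members called. Those fits called 0, 7, 0, 0 and 2 of all names.

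**Figure D3:**
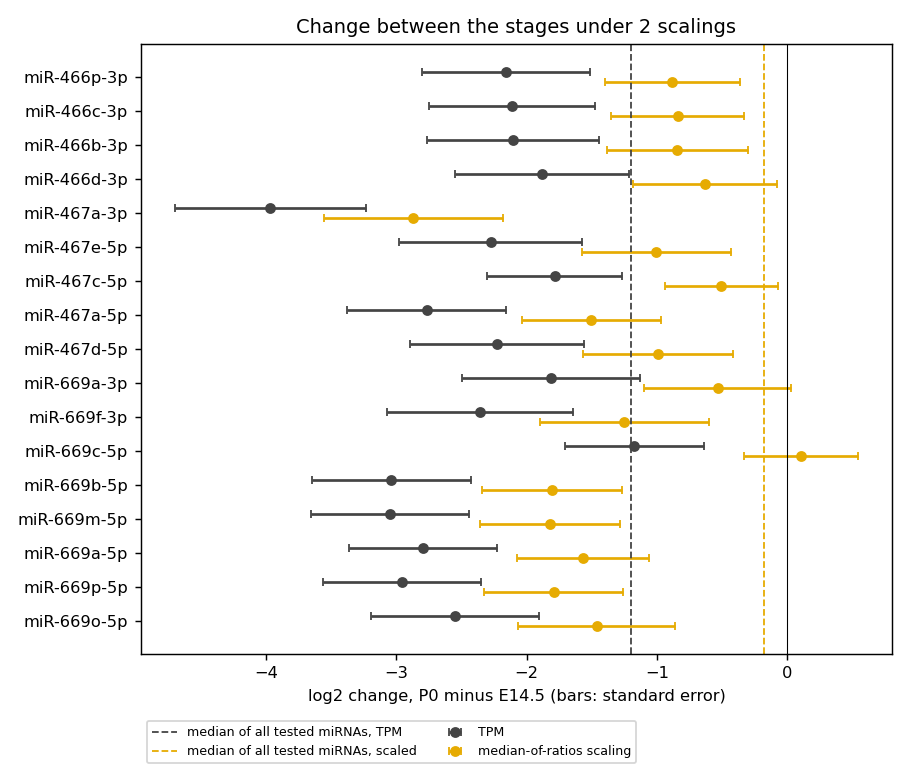
Log2 change from E14.5 to P0 (points, with bars for the standard error) of the 17 abundant members, in TPM (dark) and after median-of-ratios scaling (yellow). Dashed lines mark the medians of all 670 tested miRNAs at −1.20 and −0.17. miR-467a-3p lies farthest to the left under both scalings and miR-669c-5p farthest to the right.

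Of the 45 members, 1 had an adjusted p under 0.05 in the authors' deposited table, miR-467a-3p with a log2 fold change of −2.97 and an adjusted p of 5.99e-04, where 5.32% of all names were called lower and 5.13% higher. Of the 17 abundant members 16 had a negative log2 fold change in the authors' deposited table, and miR-669c-5p had 0.09. Next to the threshold in the authors' deposited table stood miR-669p-5p, with −1.91 and an adjusted p of 0.0568.

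Members differed in how far P0 replicate 1 lay from the other P0 libraries. In that library miR-669a-3p stood at 86.8% of its E14.5 mean, miR-466d-3p at 71.0% and miR-467e-5p at 65.2%. miR-466b-3p, miR-669f-3p, miR-466p-3p and miR-466c-3p followed at 56.5%, 55.8%, 54.0% and 52.9%. In P0 replicates 2 and 3 these 7 members stood between 7.33% and 18.9%. By contrast, miR-669a-5p, miR-669b-5p, miR-669m-5p, miR-467a-5p and miR-467a-3p stood at 13.5% to 16.2% in P0 replicate 1, and at 1.17% to 14.2% in the other two. miR-669o-5p and miR-669p-5p stood at 22.2% and 22.1% in P0 replicate 1. miR-467c-5p, at 30.6%, 28.8% and 25.3%, and miR-669c-5p, at 50.0%, 41.5% and 37.4%, had similar values in the P0 libraries, and miR-467d-5p stood at 45.9%, 19.6% and 8.34%. This division was seen in the values and received no test. The 4 abundant miR-466 members were all among the high ones in P0 replicate 1, whereas miR-467 and miR-669 had members on both sides, such as miR-669a-3p at 86.8% and miR-669a-5p at 14.8%.

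**Figure D4:**
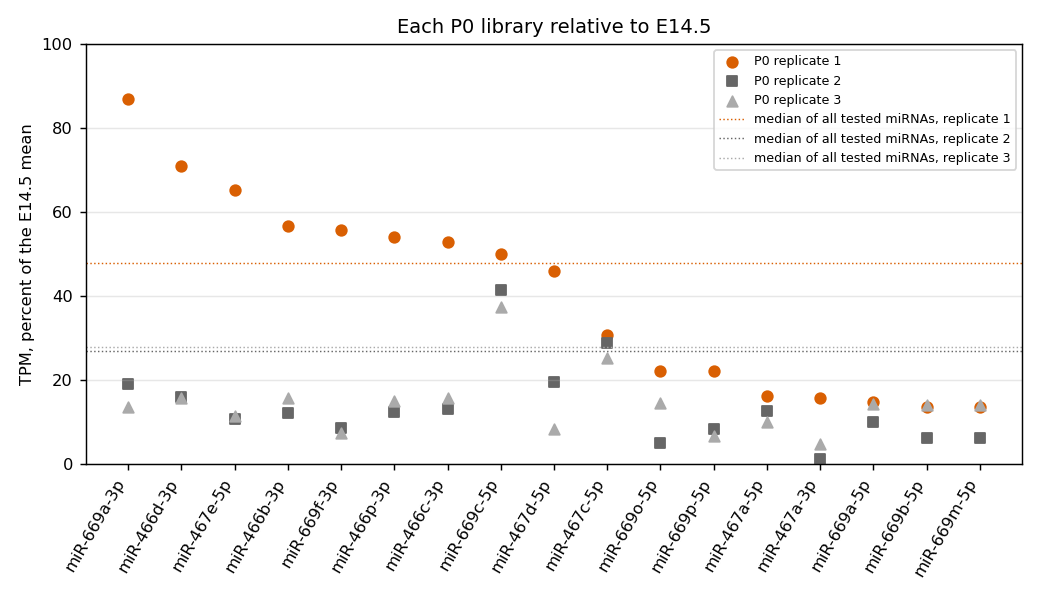
TPM in each P0 library as a percent of the member's E14.5 mean, for the 17 abundant members ordered by P0 replicate 1 (orange circles; replicates 2 and 3 are grey squares and triangles). Dotted lines mark the medians over all tested miRNAs, 47.9%, 26.9% and 27.8%. Members on the left are high in P0 replicate 1 and low in the other P0 libraries, while those on the right are low in all P0 libraries.

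Ratios between members within a library do not depend on the scaling. Relative to miR-669c-5p, miR-467a-3p stood at 0.282, 0.287 and 0.314 in the E14.5 libraries and at 0.0932, 0.00836 and 0.0380 in the P0 libraries. miR-669b-5p stood at 0.577, 0.230 and 0.409 at E14.5 and at 0.106, 0.0582 and 0.146 at P0. miR-467c-5p stood at 1.53, 1.02 and 1.20 at E14.5 and at 0.745, 0.845 and 0.821 at P0. Of the 16 members compared, 8 overlapped between the stages, among them all 4 of miR-466. For the 3 members above and for miR-467a-5p, miR-669a-5p, miR-669m-5p, miR-669o-5p and miR-669p-5p, 8 in all, the ratio was lower in every P0 library than in every E14.5 library, against 16.5% of the 431 other names of at least 10 TPM. Of the 8, miR-467a-3p, miR-669a-5p, miR-669o-5p and miR-669p-5p reached 10 TPM as a mean at E14.5 and not at P0. Nothing is therefore read from that count. miR-669c-5p was chosen as the reference after its values were seen, and it is the abundant member with the smallest fall, which favours lower ratios of the others at P0. miR-669c-5p accordingly made up more of the cluster at P0 in some libraries: it held 7.01% (95% Wilson interval 6.45 to 7.62), 9.47% (9.26 to 9.69) and 10.01% (9.59 to 10.4) of the members' reads at E14.5. It held 9.39% (9.14 to 9.64), 22.2% (21.5 to 23.0) and 20.4% (19.7 to 21.2) of them at P0.

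The balance of arms within a hairpin was compared in the same way, as log2 of the 5p over the 3p level with 1 TPM added to each. Over all miRNAs, 207 hairpin names had both arms at a mean of at least 1 TPM, and 7 of them were in the cluster. miR-466c and miR-466d were read almost wholly from the 3p arm, with mean ratios of −6.35 ± 0.67 and −4.14 ± 0.66 at E14.5 and −5.99 ± 0.93 and −3.62 ± 1.18 at P0 (SD, n = 3). miR-467e and miR-669m were read mostly from the 5p arm, with 7.04 ± 1.37 and 5.60 ± 1.43 at E14.5 and 5.93 ± 1.02 and 3.10 ± 0.82 at P0. miR-669a favoured the 3p arm, with −2.32 ± 0.62 at E14.5 and −3.31 ± 1.32 at P0, and miR-467a favoured the 5p arm, with 1.495 ± 0.98 and 2.70 ± 1.27. miR-466n had nearly equal arms at E14.5, with 0.18 ± 0.11, and 0.67 ± 0.87 at P0, where its 3p arm had 0 reads in replicates 2 and 3 and its 5p arm 17 and 37. In 4 of the 7 hairpins, miR-466c, miR-466n, miR-467e and miR-669m, the rarer arm had 0 reads in P0 replicates 2 and 3, so that their ratios there are set by the added 1 TPM. For miR-466c, miR-467a and miR-669a the rows used for the arms lie on different copies.

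No cluster hairpin passed the threshold for a shift between the stages in limma, and 0% of the 207 hairpins did. At an unadjusted p under 0.05 there was 1 of the 7 and 56 of the 207. The 1 was miR-669m, whose log2 ratio changed by −2.49 (SE 0.82, limma adjusted p = 0.163), with 4.92, 4.63 and 7.24 at E14.5 against 2.38, 2.94 and 4.00 at P0. The stages did not overlap, but the 3p arm of miR-669m had 2.65, 1.61 and 0 TPM at E14.5 and 1.98, 0 and 0 at P0. The highest E14.5 ratio is therefore also set by the added 1 TPM, and the arm reached a mean of 1 TPM at E14.5 and not at P0. Without P0 replicate 1, 42.7% of 213 hairpins were called and 0 of the 6 cluster hairpins that could then be fitted, which did not include miR-669m.

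**Figure D5:**
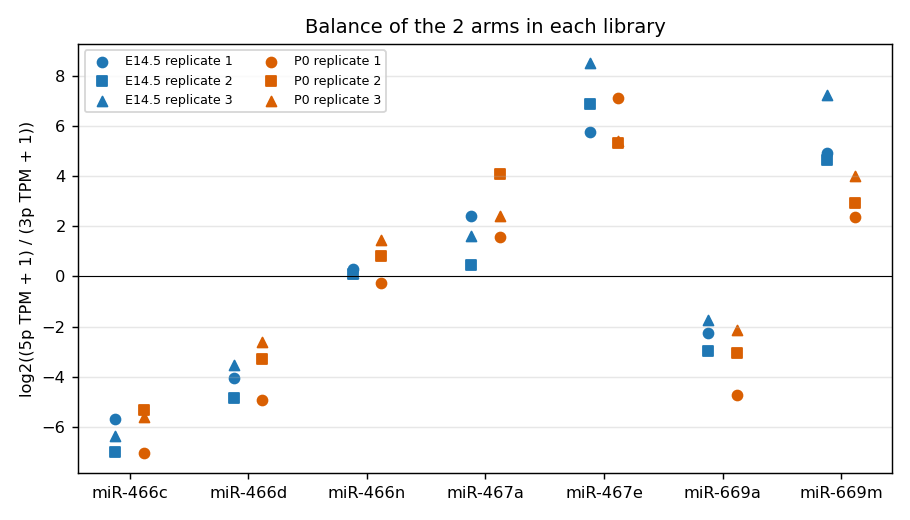
Log2 of 5p over 3p level, with 1 TPM added to each, in every library (blue E14.5, orange P0; circles, squares and triangles for replicates 1, 2 and 3) for the 7 cluster hairpins with both arms measured. miR-466c and miR-466d lie below 0 and miR-467e and miR-669m above 0 in every library. The stages do not overlap for miR-669m.

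The imprinted Mirg cluster on chromosome 12, another long run of miRNA hairpins, gives a measure beside which the Sfmbt2 members can be read. Of its 71 names 61 were tested, of which 26 were called lower and 1 higher in TPM, with a median log2 change of −1.38. After median-of-ratios scaling 5 were called lower and 1 higher, with a median of −0.45. The corresponding figures of the Sfmbt2 cluster were 18 lower of 28 with a median of −1.998, and 1 lower with a median of −0.89, and 8 of its 28 passed the filter through E14.5 alone. Over all names 32.8% were called lower in TPM and 5.22% after scaling. The difference between the clusters was not tested.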

How the data were processed

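Small RNA from Itga8-selected nephron progenitors of 3 litter pools at E14.5 and 3 at P0 was sequenced from a QIAseq miRNA library kit, per the labels' protocols. The submitters' processing notes name featureCounts, DESeq2 1.26.0 and genome build mm10. The aligner, the trimming, the treatment of molecular tags and the counting of reads that fit several copies are not given in the sources used here. The authors deposited TPM values per library and, per the file headers, for each row a mean normalized signal, a log2 fold change and its error, the score that tests it, and the raw and adjusted p-value. Multiplied by end minus start, the deposited TPM values were whole multiples of 1 read in each library (tolerance 0.001), which gave the reads. Which stage is the numerator of the authors' log2 fold change was read from its sign against the TPM values.

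Rows were placed against GENCODE M21. One row was kept per name, that with the highest total. limma 3.58.1 (R 4.3.3) with a variance trend was fitted to log2(TPM + 1) with stage as the term, for names with a mean of at least 1 TPM, with Benjamini-Hochberg adjustment over all names. Fold changes on this scale understate those of rare members. A second limma fit used log2 of 5p over 3p. Both were tested on simulated data that had no deviating library and no shift in scaling. That test does not bear on either, and its outcome is not given. Named members have a mean of at least 10 TPM, the 5 largest changes in each direction among those called (all within the former), or a called arm ratio (none); a few others named for small counts were chosen after their values were seen. Members, lists and rules were chosen with earlier results of these data known. Alternatives covered scaling, weighting, filters, the pseudocount, summed rows, a replicate block and each library left out. RefSeq tables held mature sequences for 0 of the 45 members, so none is printed and a correction for their base composition was void and not run.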

Additional observations from a re-analysis of the deposited data

How the results depend on the processing

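Over all miRNAs 229 names were called in TPM, against 73 with median-of-ratios scaling, 63 after upper-quartile scaling, 28 in limma-voom with median-of-ratios size factors and 67 with that scaling and the replicate block. Under the same settings the cluster's 18 lower calls became 1, 1, 0 and 1, the 11 calls of the 5p arm 0 each, and the 7 of the 3p arm 1, 1, 0 and 1. The members' median log2 change moved from −1.998 to −0.89, −0.84 and, with scaling and the block, −0.89, to −1.26 with no filter and to −2.86 in limma-voom on recovered reads. The summed level moved from −2.07 to −0.78 and −0.65 after the 2 scalings. miR-669c-5p reversed from −1.17 to 0.11, 0.24, 0.087 and 0.11 under those 4 settings, and with scaling to 0.16, 0.27, 0.22 and 0.11 without E14.5 replicate 2 or 3 or P0 replicate 1 or 3. The cause was not tested.

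Leaving out 1 library gave 72 to 420 calls over all names, 5 to 24 lower members, 4 to 15 of the 5p arm, 1 to 9 of the 3p arm and medians of −2.73 to −1.68. With scaling as well, these were 0 to 331, 0 to 18, 0 to 10, 0 to 8 and −1.31 to −0.70 (−1.08, −1.11 and −1.07 without E14.5 replicate 1, 2 or 3). Hairpins with a called arm ratio, 0 in all, were 4 with both arms at 10 TPM or more and 91 without P0 replicate 1, with 0 of the cluster in either. No setting called a member higher at P0. Whether the replicate numbers pair the samples was not settled. Correlations were 0.193, 0.183 and 0.0423 between libraries of the same number and −0.182 to 0.0770 between the others. Each E14.5 library correlated best with its own number, but P0 replicate 3 correlated best with E14.5 replicate 2. With the replicate block in TPM 247 names and 19 members were called, miR-669a-3p being gained (limma adjusted p = 0.0437). Summed rows also gave 19 members and gained miR-669a-3p (−1.93, limma adjusted p = 0.0449). miR-466d-3p lost its call in limma-voom on recovered reads (adjusted p = 0.0541, 15 members called) and with a pseudocount of 0.1 (limma adjusted p = 0.0525, 17 members). The correction for base composition, alone or with the block, was not run. The 17 members under 1 TPM had at most 44 reads in any library, and the part of depth in their values was not tested.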

Other observations

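Beside the 17 abundant members, 3 rarer ones were called lower at P0 in TPM, chosen here after their values were seen. miR-466c-5p had a log2 change of −1.76 (limma adjusted p = 0.0180), miR-466n-3p −1.89 (0.0298) and miR-669e-5p −2.37 (0.0386). Each of them reached 1 TPM at E14.5 and not at P0 and passed the filter through E14.5, so these calls lend no support of their own. For miR-669e-5p the stages overlapped, with 1.02 TPM in E14.5 replicate 2 and 2.07 TPM in P0 replicate 1. All 3 had reads in P0 replicate 1 and none in P0 replicates 2 and 3, as did many of the cluster's rare names. P0 replicate 1 held reads of 44 of the 45 members, against 23 and 22 in P0 replicates 2 and 3 and 39, 40 and 35 in E14.5 replicates 1, 2 and 3. It was also the deepest library, and the part of depth in these counts was not tested.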
